A study of Neotoma stephensi and Rattus norvegicus with 6 samples.

Results

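Transcripts of 10 enzyme genes that break down branched-chain amino acids and propionate were examined in the foregut wall of 2 rodents, the woodrat Neotoma stephensi and the lab rat Rattus norvegicus of the Sprague Dawley strain. The 10 genes were taken by symbol, and all 10 were present among the 15481 mouse genes to which reads had been assigned. The set was chosen by the difference in normalized read counts of Acadsb between the species in these same libraries, with its pathway partners placed beside it. The comparison of the species in these genes is therefore a description. Calls of single members are quoted from the test across all genes to place them among other genes, and they are no independent evidence of a difference.

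The study asked which foregut transcripts differ between a herbivore that houses a dense microbial community in its foregut and an omnivore that does not. Each species was represented by 3 females, with 1 polyA RNA library per animal from a piece of the fornix ventricularis, the nonglandular part of the stomach. The woodrats were wild-caught and had eaten juniper foliage, whereas the lab rats were purchased animals kept on standard chow. The sample labels call all animals virgin, but by the study's methods it is unknown whether the wild animals were, and no ages were given. Species, diet, origin and housing cannot be told apart in this design. Reads of both species were aligned to mouse coding transcripts. The study compared substitution rates and alignments within species, and reported no global bias of this mapping. Single genes were not checked here. For any of them, a difference between the species in how well reads align to mouse cannot be told apart from a difference in abundance.

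Leucine, isoleucine and valine are first transaminated by a branched-chain aminotransferase. The resulting keto acids are decarboxylated in mitochondria by the branched-chain keto acid dehydrogenase complex, and each acyl-CoA product is then oxidized by its own acyl-CoA dehydrogenase. Isoleucine and valine, like propionate itself, lead to propionyl-CoA, which propionyl-CoA carboxylase and methylmalonyl-CoA mutase turn into succinyl-CoA. Propionate is also one of the short chain fatty acids that gut microbes release, and rumen epithelium is known to take such acids up.

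The libraries held 5439642 to 7932637 counted reads, so that 3 reads corresponded to 0.355 to 0.586 CPM (counted reads scaled to a total of 1000000). CPM values are normalized with edgeR's TMM factors, and log2 fold changes are of woodrats over lab rats. A gene was called when the false discovery rate (FDR) of edgeR's quasi-likelihood test over 12603 genes was below 0.01. Some counts of genes at an unadjusted p below 0.05 are given as well. The share of all genes at that p was not counted, so nothing is read from those counts. Lab rat 3 lay farthest from the other animals of its species, with a median absolute log2 deviation from the other 2 lab rats of 0.53, against 0.25 to 0.43 for the remaining 5 animals. The 10 markers of squamous epithelium were all in the files, and their summed level was 14249 to 40293 CPM in woodrats and 13342 to 17618 CPM in lab rats. Krt13 and Krt4 made up most of that sum, while 6 of the 10 had a negative log2 fold change, with a median of -0.26, and only Krt4 was called (higher), a call lost without woodrat 2 or any 1 lab rat (log2 fold changes of 2.96 to 3.97). Of 12 smooth muscle markers, 10 were in the files, with a sum of 52556 to 159140 CPM in woodrats and 16378 to 31307 CPM in lab rats. The 8 leukocyte markers summed to 15.2 to 43.0 CPM in woodrats and to 206 to 313 CPM in lab rats. Most of the lab rat sum was Cd74 (154 to 270 CPM). Of 6 tested leukocyte markers, 5 were called lower, beside 9.71% of all tested genes, and 2 to 4 with 1 animal left out. Of the 5, Itgam, Ptprc and Laptm5 were tested only because the lab rats reached 1 CPM. Their entry thus favored a lower call, and the count is not weighed against that share. Cd68 overlapped between the species (log2 fold change -0.09). Cd79a, which was not tested, had 19 reads in woodrats and 2 in lab rats. Glandular stomach markers, 6 of 9 in the files, summed to 7.32 to 10.9 CPM over all animals, mostly from Atp4a with 31 to 67 reads per animal. Muc6, Tff2 and Pgc had 1, 1 and 2 reads over all woodrats and none in lab rats. Muc5ac also had no reads in lab rats, and 17, 12 and 33 in woodrats. It was called higher (FDR = 0.00305, edgeR quasi-likelihood test), though not without lab rat 1 or lab rat 3 (FDR of 0.0102 and 0.0114). Muc5ac was tested only because the woodrats reached 1 CPM, so it could be called in no other direction. Every listed gene has at least 1 woodrat read, so a marker read only in lab rats would be missing. Sums for skeletal muscle (5 of 6 markers in the files) were 142 to 332 CPM in woodrats and 20.8 to 46.8 CPM in lab rats, but most of this was Ckm, and the other 4 markers had fewer reads in woodrats than in lab rats. Sums for adipocytes (3 of 5) were 14.2 to 22.7 CPM in woodrats and 25.3 to 73.6 CPM in lab rats.

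In the fit across all genes, Acadsb and Mut were among the genes called higher in woodrats, and Ivd, Bcat2 and Pccb among those called lower. Over all 12603 tested genes, 20.0% were called, 10.3% higher and 9.71% lower. Nothing is read from the members' counts of 2 and 3, since this contrast chose the set. All woodrats lay above all lab rats for Acadsb and Mut and below them for Ivd, Bcat2, Pccb and Bckdhb, while the species overlapped for Bckdha, Dbt, Acad8 and Pcca. Such separation was common, since 56.2% of all tested genes had no overlap between the species, with woodrats above in 28.8% and below in 27.4%. The median log2 fold change of the 10 genes was -0.26, beside 0.03 over all tested genes. Of the 10 fold changes, 5 were positive and 5 negative. Only Acadsb and Ivd kept their call with each of the 6 animals left out in turn. Without lab rat 3, 2 genes were called higher and 1 lower.

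**Figure D1:**
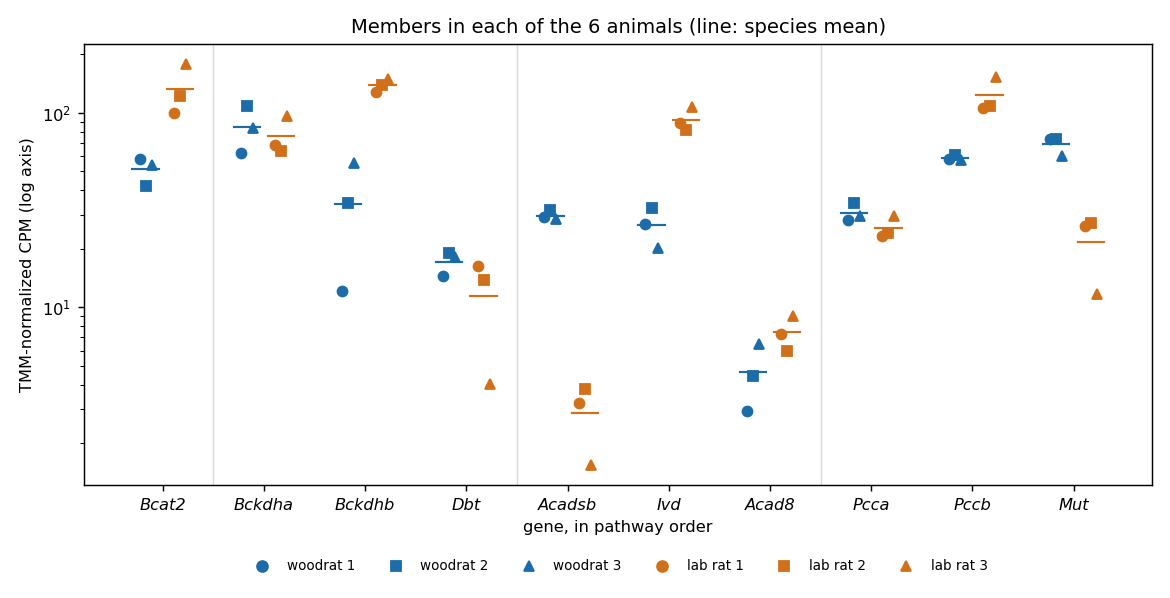
TMM-normalized CPM (log axis) of the 10 genes, in pathway order, with 1 point per animal (3 woodrats, 3 lab rats) and a line at each species mean. Acadsb stood at 28.4 to 31.5 CPM in woodrats and at 1.54 to 3.80 CPM in lab rats, and lab rat 3 was the lowest animal for Acadsb, Dbt and Mut.

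Acadsb (ENSMUSG00000030861.13) encodes the short/branched-chain acyl-CoA dehydrogenase, which oxidizes the acyl-CoA made from isoleucine. It had 149, 227 and 240 reads in woodrats 1, 2 and 3, or 29.1, 31.5 and 28.4 CPM. In lab rats 1, 2 and 3 it had 26, 23 and 8 reads, or 3.23, 3.80 and 1.54 CPM. The woodrats were nearly level with one another, and every one of them stood far above the lab rats. The log2 fold change was 3.35 with a standard error of 0.37, a 10.2-fold difference. It was 3.08 without lab rat 3 and 3.59 without lab rat 2, the lowest and the highest values with 1 animal left out. In bulk tissue, fewer cells of a type and less RNA per cell cannot be told apart, here and in the results that follow.

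Ivd (ENSMUSG00000027332.10), isovaleryl-CoA dehydrogenase, carries out the same step for leucine, and it went the other way. Woodrats 1, 2 and 3 had 27.0, 32.6 and 20.3 CPM and lab rats 1, 2 and 3 had 88.2, 81.5 and 107 CPM. All lab rats were above all woodrats, and the log2 fold change was -1.80 with a standard error of 0.26. Acad8 (ENSMUSG00000031969.14), isobutyryl-CoA dehydrogenase of valine breakdown, had few reads, with 15, 32 and 55 in woodrats, compared with 59, 36 and 47 in lab rats. Its values of 2.93, 4.44 and 6.51 CPM in woodrats overlapped those of 7.32, 5.95 and 9.05 CPM in lab rats, and its log2 fold change was -0.66 with a standard error of 0.39. Of these 3 dehydrogenases, Acadsb was thus the only one with a positive log2 fold change.

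Within each animal, Acadsb was set against the median of the other 9 genes, a difference in which the scaling of the libraries nearly cancels. Gene lengths were not available here, so the level of this difference is not a comparison of abundance between genes, and only its shift between the species is read. On the log2 scale, Acadsb minus the median was 0.05, -0.13 and -0.92 in woodrats 1, 2 and 3, compared with -4.28, -3.97 and -5.72 in lab rats 1, 2 and 3. The species means were -0.33 ± 0.51 and -4.66 ± 0.94 (SD, n = 3), a shift of 4.32, and the animals of the species did not overlap. The shift was 4.31 with total counts and 4.33 with DESeq2 size factors in place of TMM. The median fell on Pcca or Bcat2 in woodrats and on Bckdha in lab rats, so the shift also holds level differences between these genes. With the mean of the 9 partners, which rests on the same genes in every animal, it was 3.80. In terms of reads, Acadsb had 1.08, 0.966 and 1.4 reads per Ivd read in woodrats, compared with 0.0366, 0.0467 and 0.0144 in lab rats. Per Acad8 read it had 9.93, 7.09 and 4.36 in woodrats, compared with 0.441, 0.639 and 0.170 in lab rats.

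**Figure D2:**
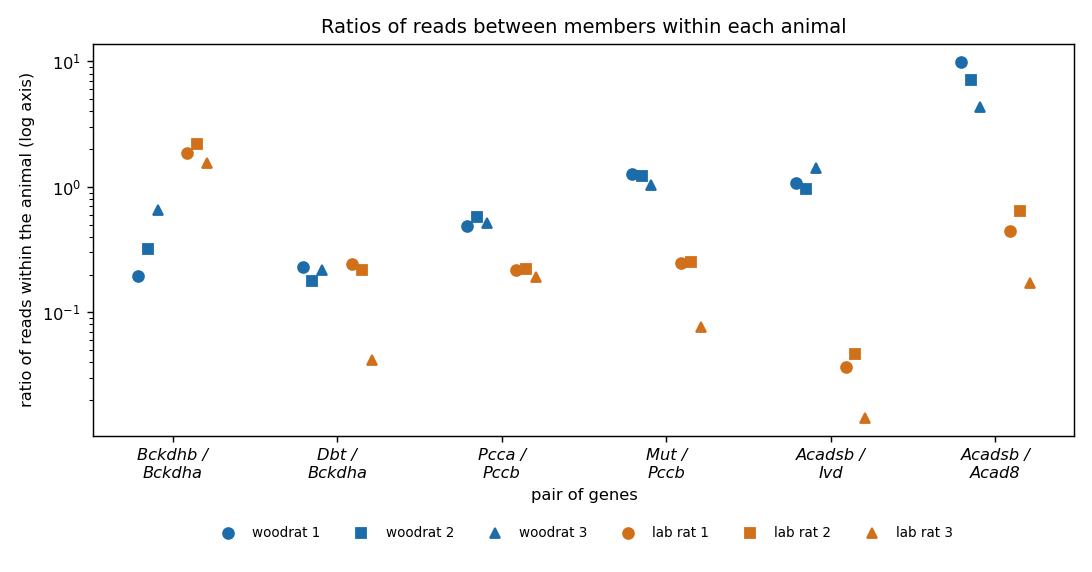
Ratios of raw reads (log axis) for 6 pairs of genes within each of the 6 animals, 1 point per animal. The ratio of Bckdhb to Bckdha lay between 0.194 and 0.657 in woodrats and between 1.54 and 2.19 in lab rats, and that of Pcca to Pccb between 0.485 and 0.570 and between 0.193 and 0.222, while the ratio of Dbt to Bckdha overlapped.

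Bcat2 (ENSMUSG00000030826.16), the mitochondrial branched-chain aminotransferase, opens the pathway. It had 58.0, 41.9 and 54.0 CPM in woodrats 1, 2 and 3, compared with 100, 122 and 178 CPM in lab rats 1, 2 and 3. The species did not overlap, and the log2 fold change was -1.38 with a standard error of 0.29. Bcat2 lost its call with any of the 6 animals left out, with log2 fold changes from -1.55 without lab rat 1 to -1.11 without lab rat 3. Its cytosolic counterpart Bcat1 (ENSMUSG00000030268.16) fell as well. Bcat1 had 0, 0 and 1 reads in woodrats and 49, 31 and 14 reads in lab rats (log2 fold change -6.15, FDR = 0.00115, edgeR quasi-likelihood test). It was tested only because the lab rats reached 1 CPM, and it was not tested with the filter at 5 CPM. The fit put the difference at 70.8-fold. From the summed reads the lab rat level was 101 times that of the woodrats, with an exact 95% interval of 17.7 to 4038 that covers counting error only. Both values rest on 1 woodrat read. Every gene in the files has at least 1 woodrat read, and Bcat1 was listed with 1 woodrat read in all.

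The branched-chain keto acid dehydrogenase complex is built from an E1 component with alpha and beta subunits (Bckdha and Bckdhb), an E2 core (Dbt) and an E3 component (Dld) that other dehydrogenase complexes share. The alpha subunit gene Bckdha (ENSMUSG00000060376.6) had 62.5, 108 and 83.9 CPM in woodrats 1, 2 and 3, compared with 68.1, 64.0 and 96.9 CPM in lab rats. These ranges overlapped, and the log2 fold change of 0.15 (standard error 0.28) became -0.10 without woodrat 2. The beta subunit gene Bckdhb (ENSMUSG00000032263.13) had 62, 247 and 465 reads in woodrats, compared with 1031, 846 and 775 in lab rats. This gave 12.1, 34.3 and 55.1 CPM against 128, 140 and 149 CPM, without overlap. Its log2 fold change was -2.03 with a standard error of 0.47, and it was -2.57 without woodrat 3 and -1.64 without woodrat 1, in both of which it was called. Bckdhb was called in 5 of the 13 alternative fits in all, DESeq2 among them. The lab rats were close together for Bckdhb, whereas woodrat 1 stood well below the other 2 woodrats.

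The E1 subunits were therefore unequal between the species. Woodrats 1, 2 and 3 had 0.194, 0.317 and 0.657 Bckdhb reads per Bckdha read and lab rats 1, 2 and 3 had 1.88, 2.19 and 1.54. The log2 ratio averaged -1.53 ± 0.87 in woodrats, compared with 0.88 ± 0.25 in lab rats (SD, n = 3), a difference of -2.41 without overlap. In woodrat 1, where Bckdhb was lowest, the smooth muscle sum was highest (159140 CPM) and the squamous epithelium sum lowest (14249 CPM, against 30653 and 40293 CPM in woodrats 2 and 3). The part of these cell types in the Bckdhb values was not tested.

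Dbt (ENSMUSG00000000340.9) had 14.5, 19.0 and 18.1 CPM in woodrats 1, 2 and 3, compared with 16.4, 13.9 and 4.04 CPM in lab rats 1, 2 and 3. The species overlapped, and lab rat 3 was far below the other 5 animals. The log2 fold change of 0.58 (standard error 0.46) was 0.19 without that animal. Dld had 69.1 ± 1.86 CPM in woodrats, compared with 91.8 ± 13.6 CPM in lab rats (SD, n = 3), a log2 fold change of -0.41 that was not called (FDR = 0.168, edgeR quasi-likelihood test).

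The complex is switched off by the kinase Bckdk and switched on by the phosphatase Ppm1k. Bckdk had 77.9, 57.6 and 57.8 CPM in woodrats, compared with 88.5, 103 and 119 CPM in lab rats, and Ppm1k had 12, 35 and 21 reads against 14, 15 and 4. Neither was called, with log2 fold changes of -0.68 (FDR = 0.0509) and 0.94 (FDR = 0.184, edgeR quasi-likelihood test). All woodrats lay below all lab rats for Bckdk, whereas the species overlapped for Ppm1k, which had no more than 35 reads in any animal.

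**Figure D3:**
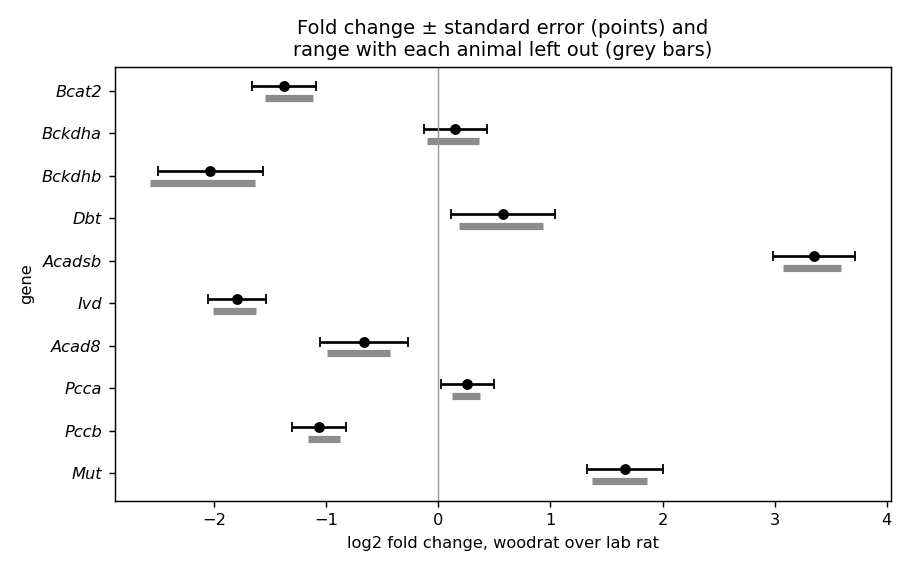
Log2 fold change of woodrats over lab rats for the 10 genes, with points and whiskers for the estimate ± standard error (3 animals per species) and grey bars for the range of estimates with each animal left out. Acadsb (3.35) and Mut (1.66) lay to the right of 0, Bckdhb (-2.03), Ivd (-1.80), Bcat2 (-1.38) and Pccb (-1.07) to the left, and the bar of Bckdha crossed 0.

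Propionyl-CoA carboxylase holds alpha subunits that carry biotin (Pcca) and beta subunits (Pccb). Pcca (ENSMUSG00000041650.14) had 28.1, 34.6 and 29.4 CPM in woodrats 1, 2 and 3, compared with 23.2, 24.1 and 29.7 CPM in lab rats. The ranges overlapped, and the log2 fold change was 0.26 (standard error 0.24). Pccb (ENSMUSG00000032527.12) had 58.0, 60.7 and 57.6 CPM in woodrats, compared with 106, 109 and 154 CPM in lab rats, and the log2 fold change was -1.07 (standard error 0.24). Every lab rat was above every woodrat for Pccb, and the woodrats were nearly alike. Its call was lost with any 1 of the 6 animals left out, and the log2 fold change ranged from -1.16 without lab rat 1 to -0.87 without lab rat 3.

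The carboxylase subunits, like the E1 subunits, differed in their ratio. There were 0.485, 0.570 and 0.510 Pcca reads per Pccb read in woodrats 1, 2 and 3, compared with 0.218, 0.222 and 0.193 in lab rats 1, 2 and 3. On the log2 scale these were -0.94 ± 0.12 and -2.23 ± 0.11 (SD, n = 3), a difference of 1.30. Of the 6 ratios plotted, this one had the smallest SD of the log2 ratio in woodrats and in lab rats.

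Mut (ENSMUSG00000023921.8) encodes methylmalonyl-CoA mutase, the cobalamin-dependent last step before succinyl-CoA. It had 378, 529 and 505 reads in woodrats, compared with 210, 165 and 61 in lab rats. In CPM these were 73.8, 73.4 and 59.8 against 26.1, 27.3 and 11.7, and the species did not overlap. The log2 fold change of 1.66 (standard error 0.34) corresponded to a 3.17-fold difference. It was 1.37 without lab rat 3, where Mut was again called. The call was lost without woodrat 1, woodrat 2, lab rat 1 or lab rat 2, with log2 fold changes of 1.61, 1.58, 1.82 and 1.86. Mut and Pccb, which act one after the other but for the epimerase between them, thus had log2 fold changes of opposite sign, and the reads of Mut per Pccb read were 1.27, 1.21 and 1.04 in woodrats, compared with 0.245, 0.250 and 0.0763 in lab rats.

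Mcee, the epimerase that lies between Pccb and Mut, had 33.4, 31.6 and 23.3 CPM in woodrats, compared with 11.5, 12.9 and 26.6 CPM in lab rats. It overlapped only through lab rat 3 and was not called (log2 fold change 0.80, FDR = 0.115). Without that animal its log2 fold change was 1.27, which was not called either. Mmab and Mmaa prepare and deliver the cobalamin cofactor of the mutase. Mmab had 43, 66 and 63 reads in woodrats, compared with 18, 29 and 10 in lab rats, with a log2 fold change of 1.48 (FDR = 0.0235, edgeR quasi-likelihood test), and was called by DESeq2. Mmaa had a log2 fold change of -0.53 (FDR = 0.201) with overlapping species.

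Members differed in how much they varied between the 3 animals of 1 species. This spread also holds counting error, which weighs more where reads are few, as for Acadsb in lab rats (26, 23 and 8 reads). The medians over all genes given beside it are not matched for level. The coefficient of variation in woodrats ran from 2.84% for Pccb and 5.45% for Acadsb to 63.5% for Bckdhb, where the median of all tested genes was 26.3%. In lab rats it ran from 7.69% for Bckdhb to 57.0% for Dbt, with 41.2% for Acadsb and 39.8% for Mut, beside a median of 26.6%. Bckdhb was thus the most variable of the 10 genes in woodrats and the least variable in lab rats. The spread of Acadsb, Mut and Dbt in lab rats came with lab rat 3, which deviated from the mean of the other 2 lab rats by -1.05, -1.16 and -1.82 log2 units in these genes. The same animal lay above the other 2 in the remaining 7 genes, by 0.16 (Bckdhb) to 0.69 (Bcat2) log2 units. What sets lab rat 3 apart was not tested.

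Beyond these 10 genes, 79 genes were listed by function. They belong to neighbouring steps, apart from 16 genes of general mitochondrial content. Of the 79 genes, 77 were in the files and 75 were tested. At an FDR below 0.01, 3 were higher in woodrats (4%) and 10 were lower (13.3%), beside 10.3% and 9.71% of all tested genes. Their median log2 fold change was -0.17. Without lab rat 3 the counts were 1 and 7, and without woodrat 2 they were 0 and 4, with 8 and 17 at an unadjusted p below 0.05. The shares over all genes belong to the full fit. Without woodrat 2, only 439 of all 12603 tested genes were called higher and 459 lower.

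**Figure D4:**
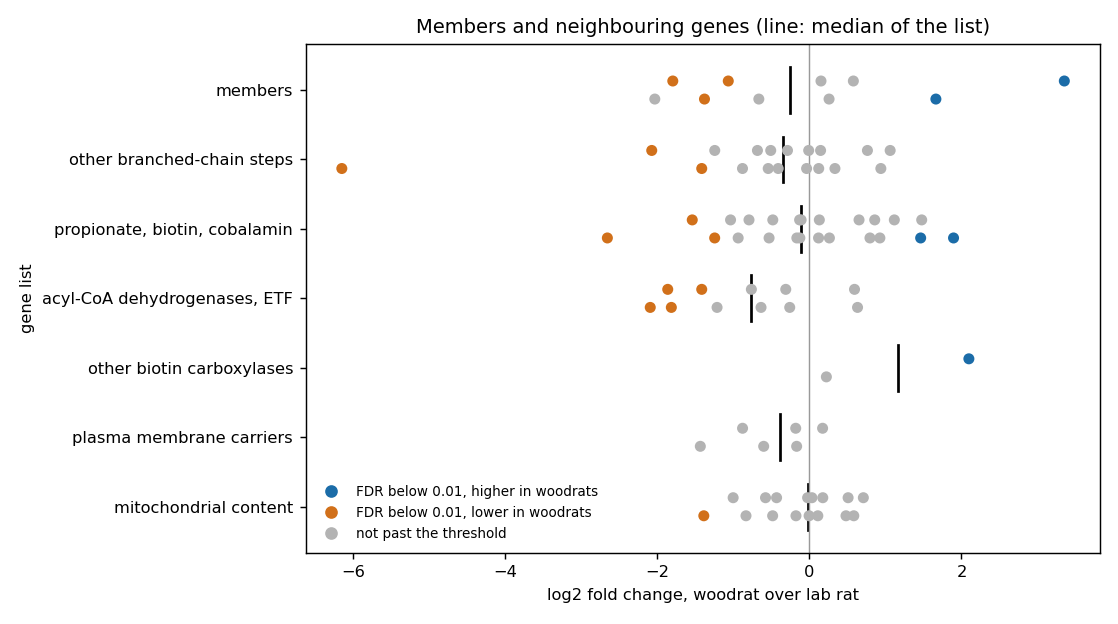
Log2 fold change of woodrats over lab rats for each tested gene of the 10 members and of the 6 neighbouring lists, 1 point per gene, with a line at the median of each list and color for an FDR below 0.01. The acyl-CoA dehydrogenase list had 4 of 11 genes lower and none higher past the threshold, with a median of -0.76. Over all tested genes, 9.71% were lower and 10.3% higher. The mitochondrial content list had a median of -0.01.

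The acyl-CoA dehydrogenase family, to which Acadsb, Ivd and Acad8 belong, was represented by 8 other family members and 3 genes of the electron transfer flavoprotein system that accepts their electrons. Of these 11 tested genes, 4 were lower in woodrats (36.4%) and 0 were higher at an FDR below 0.01. Over all tested genes, 9.71% were lower and 10.3% higher. At an unadjusted p below 0.05 the list had 6 lower and 1 higher, with no share of all genes to set beside them. DESeq2 called 5 lower and 0 higher in the list, where it called 1930 and 1986 of all 12603 tested genes. The medium-chain enzyme gene Acadm had 93.0, 174 and 194 CPM in woodrats, compared with 750, 657 and 557 CPM in lab rats, or a log2 fold change of -2.09 (FDR = 0.00274, edgeR quasi-likelihood test). Acadl, the long-chain enzyme, and Acads, the short-chain enzyme, had log2 fold changes of -1.86 (FDR = 0.00162) and -1.41 (FDR = 0.00833). Etfa, the alpha subunit of the electron transfer flavoprotein, was 81.8 ± 1.82 CPM in woodrats, compared with 288 ± 36.2 CPM in lab rats (SD, n = 3; log2 fold change -1.81, FDR = 0.00112). Gcdh and Acad10 had the only positive log2 fold changes in this list, 0.63 and 0.59, and neither was called. Acadl and Etfa kept their calls with each animal left out, whereas Acadm lost its call without woodrat 2, lab rat 1 or lab rat 2 (log2 fold changes of -2.23, -1.98 and -2.09) and Acads kept it only without lab rat 1 (-1.66).

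Another 18 genes of branched-chain amino acid breakdown, regulators and a carrier included, were all tested. Of these, 3 were lower in woodrats (16.7%) and 0 higher at an FDR below 0.01, beside 9.71% and 10.3% of all tested genes. At an unadjusted p below 0.05 the counts were 6 and 2, again with no share of all genes beside them. By DESeq2 they were 5 and 0, where it called 1930 of all 12603 tested genes lower and 1986 higher. The 3 were Bcat1, Acads and Hadhb, the last of which encodes the beta subunit of the mitochondrial trifunctional protein. Acads was also counted in the acyl-CoA dehydrogenase list, and Bcat1 was tested only because the lab rats reached 1 CPM. Hadhb had 57.2, 78.4 and 143 CPM in woodrats, compared with 403, 429 and 342 CPM in lab rats (log2 fold change -2.07, FDR = 0.00363, edgeR quasi-likelihood test). Its call held without woodrat 1 (-1.82) or woodrat 3 (-2.53) and was lost without any of the other 4 animals. Several genes next to the dehydrogenases were not called, among them Mccc1 and Mccc2, the subunits of methylcrotonyl-CoA carboxylase in leucine breakdown, with log2 fold changes of 0.12 and -0.29, and Hibch, Hibadh and Aldh6a1 of valine breakdown, with 0.15, -0.51 and 0.76. The FDR of these 5 genes lay between 0.0868 (Aldh6a1) and 0.783 (Mccc1). In the isoleucine branch, Hsd17b10, the hydroxyacyl-CoA dehydrogenase that follows Acadsb and the hydratase, had a log2 fold change of -1.24 with all woodrats below all lab rats. It was not called (FDR = 0.0137, edgeR quasi-likelihood test), but it was with total counts (-1.24) and by DESeq2 (-1.28). Echs1, the hydratase shared with valine breakdown, and Acat1, the thiolase that ends the branch, had log2 fold changes of -0.54 (FDR = 0.118) and 0.34 (FDR = 0.400). Slc25a44, the mitochondrial carrier that brings branched-chain amino acids to Bcat2, had 8.59 ± 0.705 CPM in woodrats, compared with 4.07 ± 0.901 CPM in lab rats, without overlap but also without a call (FDR = 0.0322).

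The next list held 23 tested genes for propionate activation and for the biotin and cobalamin cofactors of Pcca and Mut. At an FDR below 0.01, 2 were higher in woodrats (8.70%) and 3 lower (13.0%), beside 10.3% and 9.71% of all tested genes. Abcd4, which takes part in moving cobalamin out of lysosomes, had 37.0 ± 9.98 CPM in woodrats, compared with 9.99 ± 3.37 CPM in lab rats (SD, n = 3; log2 fold change 1.90, FDR = 0.00388, edgeR quasi-likelihood test). Its call was lost without woodrat 2, lab rat 1 or lab rat 2 (1.85, 1.78 and 1.75). Acss1, a mitochondrial acyl-CoA synthetase for acetate, had a log2 fold change of 1.46 and lost its call with any 1 animal left out (1.24 to 1.66), whereas Acss2, its cytosolic relative, had one of -1.54 (FDR = 0.00246). Acss2 lost its call without woodrat 2, lab rat 1 or lab rat 2 (-1.63, -1.56 and -1.57). Acss3, which activates propionate, had no more than 16 reads in any animal and a log2 fold change of -0.11 (FDR = 0.918).

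The lower genes of this group included Slc5a6, the plasma membrane carrier of biotin and pantothenate, with 4.88, 13.0 and 15.3 CPM in woodrats, compared with 78.2, 72.6 and 60.9 CPM in lab rats. Its log2 fold change of -2.66 (FDR = 0.00198, edgeR quasi-likelihood test) kept its call with each animal left out. Hlcs, which attaches biotin to Pcca and the other carboxylases, had a log2 fold change of -0.13 (FDR = 0.860). Echdc1, which clears ethylmalonyl-CoA and methylmalonyl-CoA side products, had one of -1.24 (FDR = 0.00384). The call of Echdc1 was lost without woodrat 2, lab rat 1 or lab rat 2 (-1.29, -1.20 and -1.18). The cobalamin genes thus lay on both sides of 0, and Mmachc (log2 fold change 1.12, FDR = 0.0244) and Mmadhc (-1.04, FDR = 0.0119), which process cobalamin ahead of Mut, were not called.

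Of the other biotin-dependent carboxylases, Acacb, the mitochondrial-surface acetyl-CoA carboxylase, was higher in woodrats with 77, 148 and 132 reads against 46, 17 and 17 (log2 fold change 2.10, FDR = 0.00341, edgeR quasi-likelihood test). It was no longer called without woodrat 2, lab rat 2 or lab rat 3 (1.90, 1.91 and 1.98). Acaca, the cytosolic form, was not called (0.22, FDR = 0.60). None of the 6 tested plasma membrane carriers of branched-chain amino acids was called in either direction (0 genes by edgeR's quasi-likelihood test and 0 by DESeq2), with 1 lower and 0 higher at an unadjusted p below 0.05, though 1 was called lower without woodrat 3. The gene with an unadjusted p below 0.05 was Slc3a2, the heavy chain of the heteromeric carriers, with a log2 fold change of -0.88 (FDR = 0.0320). It is named here after its value was seen.

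The 16 genes of general mitochondrial content, among them citrate synthase and subunits of the respiratory chain, summed to 4576 to 5208 CPM in woodrats and to 5226 to 7403 CPM in lab rats. Their median log2 fold change was -0.01. A single gene of this list, Uqcrc1, was lower in woodrats at an FDR below 0.01 (log2 fold change -1.39, FDR = 0.00769, edgeR quasi-likelihood test), and it lost its call with any 1 animal left out (-1.51 to -1.11). The higher count in this list was 0, with 2 at an unadjusted p below 0.05 and 0 by DESeq2. The log2 fold changes of the list ran from -1.39 (Uqcrc1) to 0.71. Those of Acadsb, Mut, Bckdhb and Ivd lay outside this range and those of the other 6 members inside it, Bcat2 (-1.38) only just. Since this contrast chose the set, the placing is a description and does not set the members apart from the list.

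The 5 tested genes whose pattern over the 6 animals was most like that of Acadsb were Jmy, Myocd, Klhl42, Insr and Zfhx3. Likeness was measured as the root mean square difference in log2 CPM after centering each gene, which was 0.13, 0.14, 0.14, 0.15 and 0.21 for these genes. Jmy had 185, 296 and 309 reads in woodrats, compared with 40, 31 and 9 in lab rats, and Myocd, a transcriptional coactivator of smooth muscle genes, had 188, 260 and 287 against 25, 26 and 8. All 5 had their lowest read count in lab rat 3, as Acadsb did. They were chosen for this likeness in the same 6 animals, so the shared pattern is no separate evidence. The smooth muscle markers were themselves higher in woodrats in sum, with all woodrats above all lab rats for 8 of 10 tested markers, beside 28.8% of all tested genes. Of these markers 1, Mylk, was called, while 7 were called by DESeq2, 4 without woodrat 3, and 0 without woodrat 2, lab rat 1 or lab rat 3 (7, 7 and 8 at an unadjusted p below 0.05). Over all 12603 tested genes, DESeq2 called 1986 higher and the fit without woodrat 3 called 1357 higher. The smooth muscle sum was 159140, 77026 and 52556 CPM in woodrats 1, 2 and 3, where Acadsb was nearly level. In lab rats 1, 2 and 3 it was 16378, 26741 and 31307 CPM, highest in lab rat 3, where Acadsb was lowest. Mylk alone was lowest in lab rat 3 (181 CPM). The part of smooth muscle in the difference of Acadsb between the species was not tested.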

How the data were processed

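For each animal the authors deposited raw counts, the number of reads assigned uniquely to each mouse gene. No normalization had been applied. Their strand-specific polyA reads were trimmed (Trimmomatic), joined where pairs overlapped (FLASH) and assigned by cross_match to coding transcripts of the mouse, GENCODE release M7. The sample labels name the build mm9. Animals were grouped by the species in their titles. Replicate spread is between animals, and no pair of animals of a species agreed within sampling noise (chi-square per degree of freedom 10.1 to 121).

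Files were joined in Python 3.11.15 (pandas 2.3.3). Genes reaching 1 CPM in 3 or more animals were tested in R 4.3.3 with edgeR 4.0.16 (TMM, quasi-likelihood F-test by the method used before version 4, species as the only term, Benjamini-Hochberg adjustment, FDR below 0.01), a procedure tested on simulated data. The standard error is the log2 fold change divided by the square root of F. Log2 CPM used a prior count of 2. DESeq2 1.42.0, other filters and scalings, a replicate block and the omission of each animal were tried as alternatives.

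The members and lists were chosen with earlier results of these data known. Named genes are all members, their listed regulators and direct neighbors, every listed gene past the threshold, and the 5 genes most like Acadsb. Hsd17b10, Echs1, Acat1, Slc25a44, Gcdh, Acad10, Acss3, Hlcs, Mmachc, Mmadhc, Acaca and Slc3a2 are named beyond this rule, after their values were seen. Sequences, gene lengths and genome positions were not used here.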

Additional observations from a re-analysis of the deposited data

How the results depend on the processing

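All 10 members kept the sign of their log2 fold change in the 13 alternative fits, except Bckdha, which turned to -0.10 without woodrat 2. With total counts in place of TMM, 810 genes were called higher and 1 member (Acadsb), because Mut lost its call. DESeq2 called 1986 genes higher and 1930 lower, and Bckdhb became the fourth lower member. With the replicate number as a block, 373 genes were called higher and 343 lower, 1 member higher (Acadsb) and 0 lower (4 at an unadjusted p below 0.05), and 0 other pathway genes higher (8 at an unadjusted p below 0.05) and 1 lower. Same-numbered animals deviated from their species means with correlations of -0.29, -0.09 and -0.28, and differently numbered ones with -0.06 to 0.32. No animal correlated best with its own number. With 3 animals per species, these correlations cannot decide whether animals of the same number shared a processing batch.

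With each animal left out in turn, 393 to 1357 genes were called higher and 459 to 1269 lower. The members called were 1 to 2 higher and 1 to 2 lower, and the other pathway genes called 0 to 2 higher and 4 to 10 lower. The fewest calls over all genes came without woodrat 2 or lab rat 1, and the cause was not tested. Mccc1, which was not called, ranged from -0.28 without woodrat 2 to 0.32. Of other genes not called, Acss3 turned to 0.064 with the replicate block and ranged from -0.71 to 0.44 with 1 animal left out, Hlcs turned to 0.076 with the block and ranged from -0.52 to 0.29, and Acaca ranged from -0.042 (without lab rat 3) to 0.41. The shift of Acadsb against its partners stayed between 3.79 and 4.67. Reads were scarce for Acad8, Ppm1k, Acss3 and, in woodrats, Bcat1, which limits what can be seen in these genes.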
